A study of Mus musculus with 9 samples.

Results

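Sarcomere and muscle genes were examined in the striatum of adult male mice by RNA-seq. The 6 genes, *Ttn*, *Neb*, *Flnc*, *Acta1*, *Myh1* and *Myl1*, were taken by name from a table of 15464 genes, and all 6 were listed there. They were chosen by name with their normalized counts in these same libraries already known, to see whether *Ttn* moves with other muscle genes, so their levels and fold changes are a description and carry no test. The mice were 10 to 12 weeks old, on a C57BL/6J background, and each gave 1 striatal library: 3 wild-type (WT) mice, 3 *Shank3* heterozygous (HET) mice and 3 *Shank3* knock-out (KO) mice, littermates of the *Shank3B* line, in which some of the exons of *Shank3* are targeted. In such bulk tissue, fewer cells of a type and less RNA per cell cannot be told apart. Values are normalized counts, that is, read counts per gene estimated with Salmon and divided by a size factor for each library.

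The sarcomere is the repeating contractile unit of striated muscle. Thick filaments are bundles of myosin, made of heavy chains such as Myh1 and light chains such as Myl1. Thin filaments are built on actin, which in skeletal muscle is Acta1, and nebulin (Neb) lies along their length. Titin, encoded by *Ttn*, spans from the Z-disc to the M-band and acts as a molecular spring, and filamin C (Flnc) crosslinks actin at the Z-disc and at the membrane. The striatum is a brain region and holds no striated muscle of its own, although several relatives of these proteins, such as the cytoplasmic actins and filamin A, work in the cytoskeleton of many other cells.

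The libraries summed to between 30830020 and 33790296 normalized counts, sums which follow the normalization, so that the depth in reads is unknown. *Shank3* itself had 6043 to 8812 normalized counts in WT, 7098 to 8050 in HET and 10237 to 10798 in KO; these are sums over the gene and do not check the targeted exons. All 10 markers of medium spiny neurons, the main neurons of the striatum, were listed, and their summed level lay between 47990 and 113243 normalized counts, lowest in KO replicate 3 and highest in WT replicate 2. HET replicate 3 and KO replicate 3 stood apart from the other libraries on the first principal component, which held 33.6% of the variance. In a limma fit over 14239 genes, 0 genes (0%) had an adjusted p under 0.05 in HET against WT, KO against WT or KO against HET (Benjamini-Hochberg adjustment), and the unadjusted threshold of 0.05 was passed by 1.11%, 0.822% and 1.31% of genes. With no difference in any gene, a share near the threshold itself would pass on average, and these shares were lower. Whether the fit was cautious was not tested. With 3 mice per genotype, a count of 0 does not show that no gene changed. The comparisons with WT share the 3 WT libraries.

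**Figure D1:**
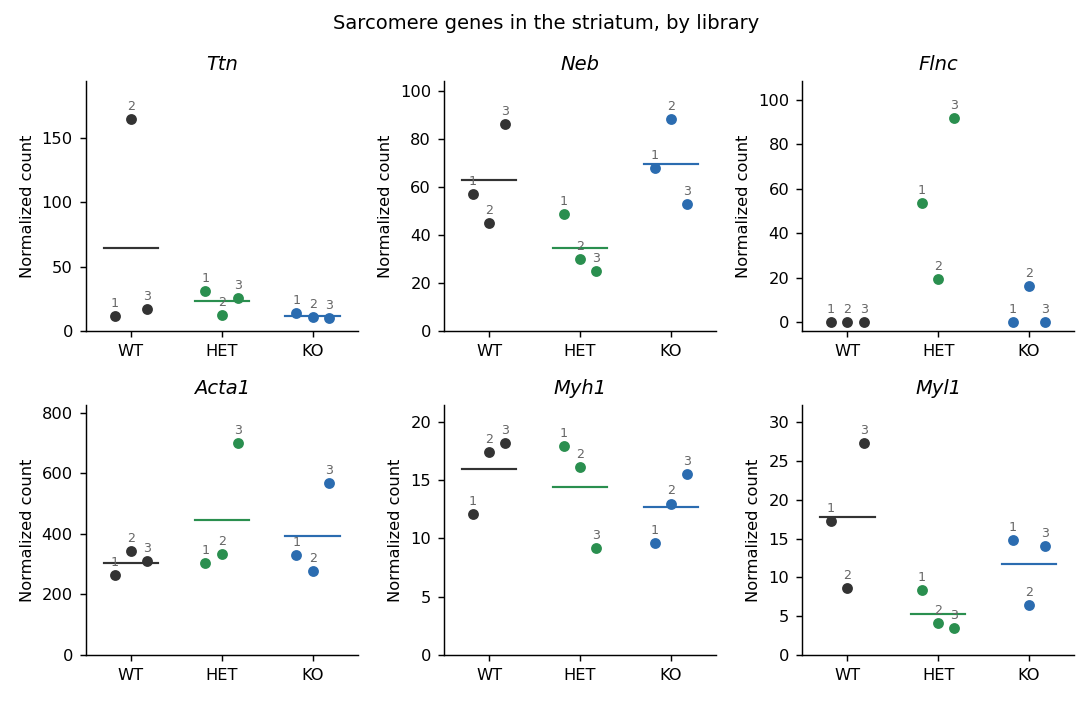
Normalized count of each of the 6 genes in the 9 libraries, in 1 panel per gene, with the replicate number above each point and a line at the mean of each genotype (no line for *Flnc*, which was listed at 0 in 5 libraries). A single WT library carries the high value of *Ttn* (164 normalized counts), *Flnc* is above 0 in the HET libraries and 1 KO library, and *Acta1* is high in replicate 3 of HET and KO.

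*Ttn* (ENSMUSG00000051747, GRCm38 chromosome 2, minus strand, 76703980 to 76982547) encodes titin, the largest of these proteins, and its longest annotated transcript has 347 exons and 106824 bases. It was low in every library but 1. WT replicates 1, 2 and 3 had 11.5, 164 and 17.5 normalized counts. The HET libraries had 31.4, 12.4 and 25.5, and the KO libraries 14.3, 10.9 and 10.3. WT replicate 2 was 5.24-fold above HET replicate 1, the next highest library, and the groups overlapped in every comparison. The mean was 64.4 ± 86.5 in WT, 23.1 ± 9.74 in HET and 11.8 ± 2.15 in KO (SD, n = 3 mice each). The log2FC, the difference of mean log2(normalized count + 1), was −1.40 (standard error 0.81) in KO against WT and −0.58 (0.81) in HET against WT. Without WT replicate 2 these values became −0.25 and 0.57, so that the first shrank and the second changed sign. Without WT replicate 1 they became −2.12 and −1.29.

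The high value of *Ttn* stood alone in size among the genes tested in WT replicate 2, but not across the libraries. Of 14239 genes, *Ttn* was the only gene in that library at least 4-fold above the highest of the other 8 libraries. The same search in the 8 other libraries found 1 gene in each of WT replicate 3 (*Eomes*, 4.14-fold), HET replicate 3 (*Mamdc4*, 5.17-fold) and KO replicate 3 (*Tex14*, 6.41-fold). It found 0 genes in the rest. The filter on low values removes genes that reach 10 normalized counts in fewer than 3 libraries, so the search could not find such genes. *Ms4a15* (named after its values were seen) was not tested for this reason. It had 223 normalized counts in WT replicate 3 and at most 52.4 in the other libraries. *Tex14* was thus further above the other libraries than *Ttn*, at 5.24-fold. On the log2(normalized count + 1) scale, *Ttn* in WT replicate 2 was 3.53 above the median of the other libraries. Over the 72 other muscle genes tested, the median of the same measure was 0.016 in that library, against 0.0019 over all genes tested, and the highest was *Tnni3*, cardiac troponin I, at 1.02. The other members did not share a rise of this size. *Myl1* had 8.66 normalized counts in WT replicate 2, the lowest of the WT libraries, *Neb* had 45.2, also the lowest of them, and *Flnc* was listed at 0. *Acta1* had 342, the highest of the WT libraries, and *Myh1* had 17.4, and each was the 3rd highest of the 9 libraries there, 0.094 and 0.27 above the median of the others on the log2 scale.

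Other muscle genes were mixed in the same library. Of the 72 other muscle genes tested, 7 (9.72%) had their highest value in WT replicate 2, against 6.79% of all genes tested. Among genes too low to be tested, *Myom2*, which encodes an M-band protein, had 15.7 normalized counts there and 1.97 to 8.19 elsewhere, and *Xirp1*, which encodes an actin-binding protein of striated muscle, had 7.12 there and 1.05 to 6.49 elsewhere (both named after their values were seen). Others stayed under 10 normalized counts in every library. *Mb*, which encodes the oxygen store myoglobin, had 2.06 normalized counts in WT replicate 2 and at most 4.84 in any library, and *Myog*, which encodes the transcription factor myogenin, was listed at 0 there and reached 4.21 elsewhere. The fast troponin genes *Tnnt3* and *Tnnc2* had 2.36 and 2.78. The summed level of the 11 smooth muscle markers was 2145 normalized counts in WT replicate 2, within the range of the other libraries (1531 to 2645) and exceeded only in HET replicate 2. This sum is carried by its abundant genes. The low marker *Myocd* (named after its values were seen) had 16.5 there and 2.48 to 8.60 elsewhere, while each of the other markers was highest in another library. None of the 5 protein-coding neighbours of *Ttn* within 100 kb had its highest value in this library. *Prkra* had 286 there against 259 to 320 elsewhere, *Plekha3* had 940 against 883 to 987, and *Fkbp7* had 33.2 against 29.6 to 61.3. *Ccdc141* had 527 normalized counts in WT replicate 2, its lowest value, and *Pjvk* had 2.55 against 0 to 7.45.

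**Figure D2:**
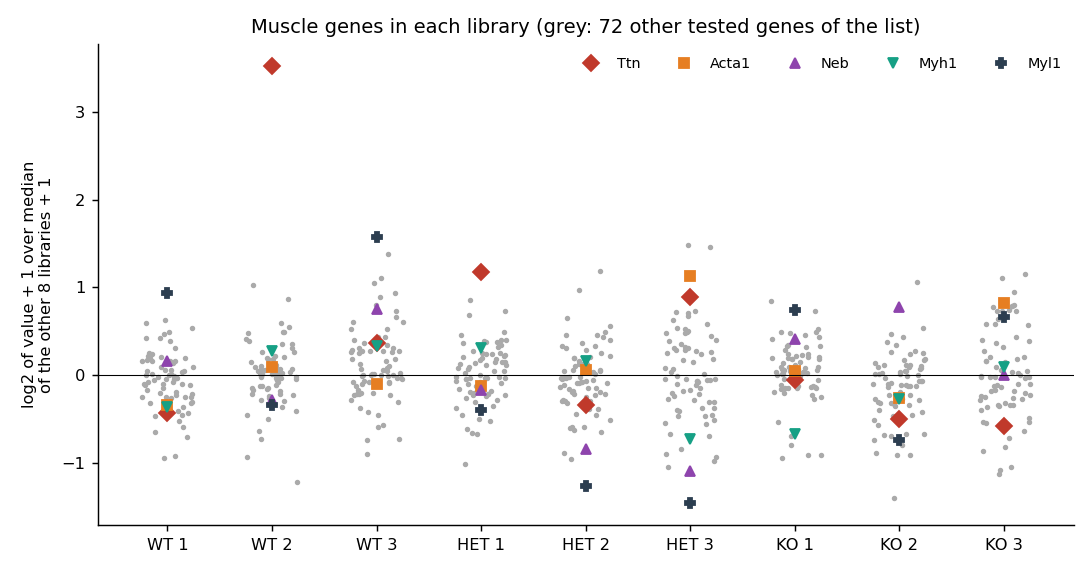
For each library (x axis), log2 of a gene's normalized count + 1 over the median of the other 8 libraries + 1 (y axis), with the 72 other tested muscle genes as grey points and 5 of the 6 genes as coloured symbols (*Flnc* is left out, since its median is 0 or rests on zeros). *Ttn* in WT replicate 2, at 3.53, lies far above every other muscle gene of that library, and *Acta1* is raised in HET replicate 3 and KO replicate 3.

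Across the 9 libraries, *Ttn* had Pearson correlations of either sign with the other 5 genes. The value on the log2 scale was 0.30 with *Myh1*, 0.039 with *Acta1*, −0.030 with *Flnc*, −0.16 with *Myl1* and −0.26 with *Neb*, and Spearman's rho was 0.32, 0.22, 0.26, −0.13 and −0.45 (9 libraries, a description with no test). Without WT replicate 2 and HET replicate 1, the libraries farthest from the median of *Ttn*, the value for *Myh1* became −0.41, that for *Acta1* 0.51, that for *Flnc* 0.46, that for *Myl1* −0.24 and that for *Neb* −0.43, so the sign with *Myh1* and *Flnc* rested on those libraries. Among all genes tested, the 5 with the highest correlation with *Ttn* were *Sepsecs* (0.94), *Muc3a* (0.91), *Wipf3* (0.89), *Slc25a23* (0.88) and *Zfp507* (0.87), and none of them is on the list of muscle genes. *Sepsecs* had 650 normalized counts in WT replicate 2 and 536 to 581 in the other libraries, a spread much narrower than that of *Ttn*.

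*Ttn* was also the lowest of the 6 genes per length in the mean over the 9 libraries, although *Flnc* was below it in the 5 libraries where it was listed at 0. Dividing the mean normalized count over the 9 libraries by the kilobases of annotated exon gave 0.284 per kilobase for *Ttn*, and 0.330% of the genes in the table had a lower value. *Obsl1*, a large cytoskeletal relative of *Ttn*, had 76.2 per kilobase. *Neb*, *Flnc* and *Myh1* had 2.10, 2.14 and 2.26 per kilobase, *Myl1* had 5.60 and *Acta1* had 248. Neighbours in this order overlapped in their ranges over the 9 libraries, except *Myl1* and *Acta1*, and *Acta1* was the highest of the 6 genes per kilobase in every library.

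**Figure D3:**
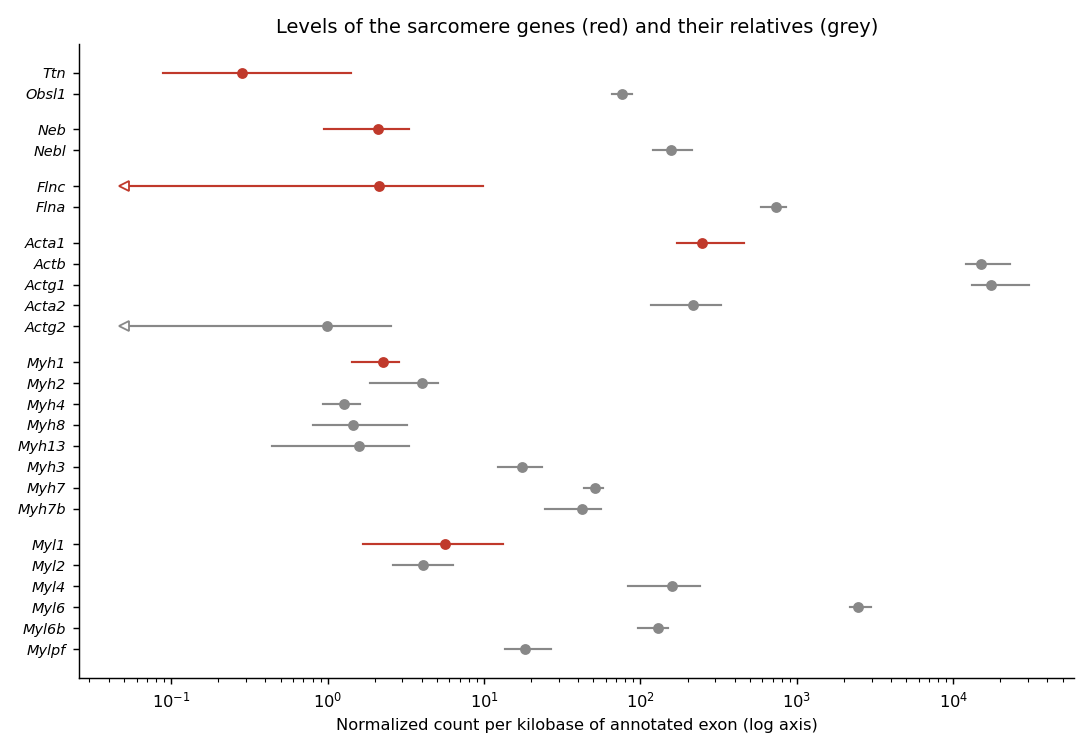
Mean normalized count per kilobase of annotated exon over the 9 libraries (points, log axis) and its lowest and highest library (lines) for the 6 genes in red and for some related genes in grey, with an open triangle at the left edge where a gene was listed at 0 in at least 1 library. *Ttn* is lowest at 0.284 per kilobase, and the relatives used outside striated muscle, such as *Actb*, *Flna*, *Nebl* and *Myl6*, lie well above the sarcomere genes they resemble.

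*Myh1* (ENSMUSG00000056328, chromosome 11, plus strand, 67200052 to 67224575) encodes a fast skeletal myosin heavy chain. Its values were low and alike in the 3 genotypes. The WT libraries had 12.1, 17.4 and 18.2 normalized counts, the HET libraries 17.9, 16.1 and 9.13, and the KO libraries 9.56, 13.0 and 15.5. The groups overlapped in every comparison, with a log2FC of −0.17 (standard error 0.36) in HET against WT and −0.31 (0.36) in KO against WT. The first became 0.11 without HET replicate 3. Per kilobase, *Myh1* had 2.26, and its neighbours in the same gene cluster *Myh2*, *Myh4*, *Myh8* and *Myh13* had 3.995, 1.26, 1.44 and 1.59. *Myh3*, the embryonic chain, had 17.5 per kilobase, and *Myh7*, the slow and cardiac chain on another chromosome, had 50.9. Across libraries, *Myh2* ran from 13.2 to 36.4 normalized counts and was lowest in WT replicate 2, where *Myh1* was among its 3 highest values.

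Reads can be assigned among these heavy chains only in part, because the genes share sequence. Of the 31-base words in the longest *Myh1* transcript, 39.7% also occur in transcripts of other genes, and 28.1% occur in *Myh2*, 19.2% in *Myh4* and 17.6% in *Myh8*. The longest stretch common to *Myh1* and *Myh2* has 268 bases. The first 90 bases of it, in coding exon 23 of *Myh1* (GRCm38 chr11:67213219-67213308, plus strand), are shown with the matching stretches of 3 relatives to let the reader see what the counting had to tell apart, with bases that differ from *Myh1* in capitals. *Myh2* differs at 0, *Myh4* at 6 and *Myh8* at 9 of the 90 bases.
Myh1: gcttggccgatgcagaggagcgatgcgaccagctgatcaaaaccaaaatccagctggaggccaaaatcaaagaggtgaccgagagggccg
Myh2: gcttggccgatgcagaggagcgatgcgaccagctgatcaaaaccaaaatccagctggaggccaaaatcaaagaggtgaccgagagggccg
Myh4: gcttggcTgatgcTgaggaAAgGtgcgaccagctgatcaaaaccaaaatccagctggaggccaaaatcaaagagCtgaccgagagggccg
Myh8: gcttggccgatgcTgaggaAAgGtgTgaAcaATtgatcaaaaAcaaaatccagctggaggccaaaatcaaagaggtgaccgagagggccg

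*Myl1* (ENSMUSG00000061816, chromosome 1, minus strand, 66924295 to 66945404) encodes a fast skeletal light chain that sits on the neck of the myosin head. Its normalized counts were lower in the HET libraries than in the WT libraries. The WT libraries had 17.3, 8.66 and 27.4 normalized counts and the HET libraries 8.39, 4.12 and 3.49, so that each HET library lay below the lowest WT library. Over all genes tested, 2.19% had their HET libraries wholly below the WT libraries. The KO libraries had 14.9, 6.40 and 14.0 and overlapped with both other genotypes. The log2FC was −1.51 (standard error 0.52) in HET against WT and −0.50 (0.52) in KO against WT, and in HET against WT it ran from −1.92 without WT replicate 2 to −1.15 without WT replicate 3. With 10 in place of 1 added before the logarithm it was −0.81. Only 4 of the 9 libraries reached 10 normalized counts, none of them HET, so *Myl1* passed the filter on low values through WT and KO. *Mylpf*, which encodes the fast regulatory light chain that partners such heavy chains, did not show the same order, with 24.2, 15.6 and 17.1 normalized counts in WT and 28.2, 21.1 and 14.6 in HET. Of the 31-base words of the longest *Myl1* transcript, 28.4% also occur in 1 other gene, the pseudogene *Mylf-ps*, which was not analysed here.

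*Acta1* (ENSMUSG00000031972, chromosome 8, minus strand, 123891769 to 123894751), the actin of skeletal muscle thin filaments, was the most abundant of the 6 genes per kilobase and was high in 2 libraries of different genotype. The WT libraries had 263, 342 and 309 normalized counts. The HET libraries had 304, 333 and 700, and the KO libraries 331, 277 and 567. HET replicate 3 and KO replicate 3 were therefore high, the other 7 libraries lay between 263 and 342, and the genotypes overlapped. The log2FC was 0.45 (standard error 0.33) in HET against WT and 0.30 (0.33) in KO against WT, and these became 0.07 without HET replicate 3 and 0.0013 without KO replicate 3.

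The cytoplasmic actins, which form the actin cytoskeleton of non-muscle cells, were high in the same libraries. *Actb*, encoding beta-actin, had 61907 normalized counts in HET replicate 3 and 52822 in KO replicate 3, against 32273 to 40266 in the other libraries. For *Actg1*, encoding gamma-actin, the values were 81255 and 66663 against 34972 to 44733. As a ratio of normalized counts, *Acta1* amounted to between 0.799% and 1.13% of *Actb* in the 9 libraries, with 1.13% in HET replicate 3 and 1.07% in KO replicate 3. Against *Actg1* the ratio was 0.717% to 0.946% in the other libraries, 0.861% in HET replicate 3 and 0.850% in KO replicate 3. On the log2 scale, *Acta1* correlated with *Actb* at 0.98 and with *Actg1* at 0.96 over the 9 libraries (Spearman's rho 0.88 and 0.68), and at 0.67 and 0.38 over the 7 libraries without those 2. With *Acta2*, the smooth muscle actin, which had 255 to 724 normalized counts, the correlation was 0.38 (0.30 over the 7 libraries). The part of these libraries' other differences in the value of *Acta1* was not tested. The 5 genes most like *Acta1* (named after the values were seen) were *Rchy1*, *Anapc15*, *Tmem147*, *Acot13* and *Atp5l*, each with a correlation of 0.988 to 0.994. *Atp5l*, which encodes a subunit of the mitochondrial ATP synthase, had 5663 and 5127 normalized counts in HET replicate 3 and KO replicate 3 and 3652 to 4340 in the other libraries.

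**Figure D4:**
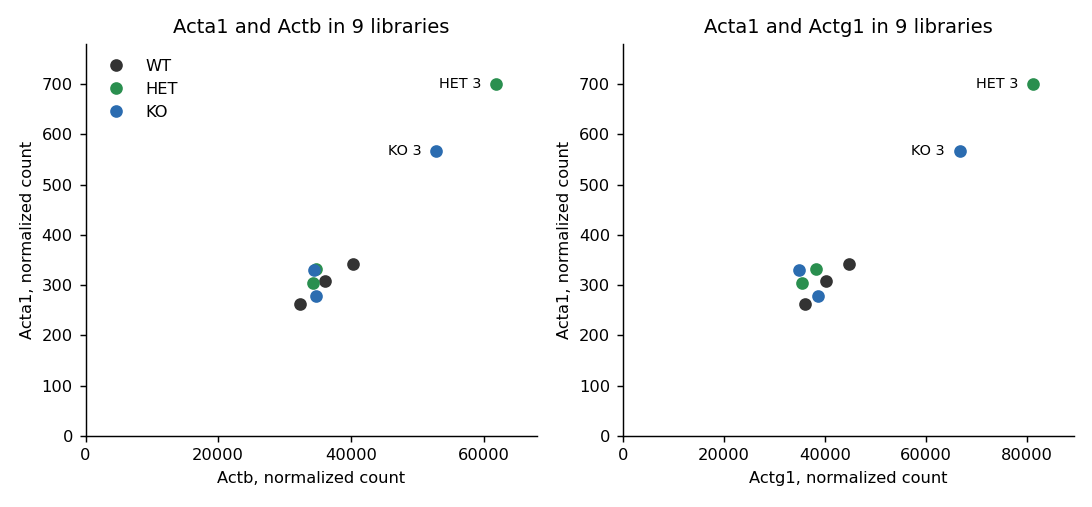
Normalized count of *Acta1* (y axis) against that of *Actb* (left) and *Actg1* (right) in the 9 libraries, 1 point per library, coloured by genotype. HET replicate 3 and KO replicate 3 lie apart from the other 7 libraries on both axes.

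*Acta1* also shares part of its sequence with other actins. Over the longest transcript, 4.45% of the 31-base words of *Acta1* occur in other genes and 4.03% in *Actb*, which had 14998 normalized counts per kilobase against 248 for *Acta1*. The expression of *Actc1*, the cardiac actin, was not analysed here.

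*Neb* (ENSMUSG00000026950, chromosome 2, minus strand, 52136647 to 52378474) encodes nebulin, and its longest annotated transcript has 157 exons and 22489 bases. Its HET and KO libraries did not overlap. The HET libraries had 48.7, 30.2 and 25.2 normalized counts and the KO libraries 67.9, 88.2 and 53.0, so that each KO library lay above the highest HET library, as was the case for 2.25% of all genes tested. The WT libraries had 57.2, 45.2 and 86.3 and overlapped with both. The log2FC was 1.01 (standard error 0.33) in KO against HET, −0.84 (0.33) in HET against WT and 0.17 (0.33) in KO against WT. The last became −0.042 without WT replicate 2 and −0.015 without KO replicate 2. *Nebl*, which encodes the shorter relative nebulette, had 1830 to 3229 normalized counts and 158 per kilobase, against 2.10 per kilobase for *Neb*. It was highest in HET replicate 3 (3229) and KO replicate 3 (3000), whereas *Neb* had its lowest value in HET replicate 3. Only 0.0935% of the 31-base words of the longest *Neb* transcript occur in other genes.

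*Neb* and *Myl1* were the pair of members with the most alike pattern, with a Pearson correlation of 0.73 over the 9 libraries (Spearman's rho 0.62), and this fell to 0.27 without HET replicates 2 and 3, the libraries farthest from the median of *Neb*. *Flnc* and *Myl1* ran opposite to each other at −0.82 (rho −0.86), and at −0.83 without HET replicates 1 and 3. *Flnc* was tied at 0 in 5 libraries. The second value therefore rests on HET replicate 2 and KO replicate 2, where *Flnc* had 19.6 and 16.3 normalized counts and *Myl1* only 4.12 and 6.40. These values are descriptions of genes chosen with their levels known. Among all genes tested, *Stac3*, which encodes an adaptor of the muscle calcium channel, was 1 of the 5 genes most like *Neb* (0.93), after *Odf2*, *Brd3* and *Lrrfip1* (each 0.94), which are not on the list of muscle genes. *Atp2a1*, the fast skeletal calcium pump, was 1 of the 5 most like *Myh1* (0.91), after *Lefty1* (0.97), which is not on the list either. *Atp2a1* was low, with 6.00 to 26.7 normalized counts. The 5 genes most like *Myl1*, led by *Dcdc5* (0.97), include none of the list. These genes were named after the values were seen.

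*Flnc* (ENSMUSG00000068699, chromosome 6, plus strand, 29433256 to 29461883) encodes filamin C, the filamin of striated muscle. All 3 WT libraries, and KO replicates 1 and 3, had a listed value of 0. The HET libraries had 53.6, 19.6 and 92.0 normalized counts, and KO replicate 2 had 16.3. Each HET library was thus above each WT and each KO library, and no fold is given against WT, where every library was listed at 0. Among all genes tested, 2.25% had their HET libraries wholly above the WT libraries, and 2.19% had their KO libraries wholly below the HET libraries. *Flnc* was the only gene of the 15464 listed at 0 in every WT library and at 10 or more in every HET library, and 0 genes had the opposite pattern. Between KO and WT, 1 gene was at 0 in every KO library and at 10 or more in every WT library, and 0 genes had the reverse. These counts were framed with the values of *Flnc* known, so they are a description with no test. *Flnc* passed the filter on low values through the HET libraries and KO replicate 2.

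A value of 0 beside a value of this size was rare in the table but not restricted to *Flnc*. In all, 673 genes were listed at 0 in at least 1 library, and 8 of them (0.0517% of the table) reached 50 normalized counts in another. The others (named after their values were seen) included *Uvssa*, a gene of DNA repair, which was listed at 0 in HET replicate 3 and KO replicate 3 and at 238 to 533 in the other libraries, and *Tmem214*, listed at 0 in HET replicate 1 and at 43.8 to 213 in the others. No 31-base word of the longest *Flnc* transcript occurs in the transcripts of another gene, and the same holds for *Ttn*.

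*Flna*, which encodes the widely expressed filamin A, was well above 0 in every library. It had 6432, 8034 and 6382 normalized counts in WT and 7271, 5529 and 8011 in HET. Per kilobase over the 9 libraries, *Flna* had 733, against 2.14 for *Flnc*. The summed level of the 11 smooth muscle markers lay between 1699 and 2645 in HET and between 1746 and 2145 in WT, and that of the 8 markers of meningeal and perivascular fibroblasts between 1211 and 4741 in HET and between 1646 and 2656 in WT. Both sums were highest in HET replicate 2, the HET library with the lowest value of *Flnc*. The summed pericyte and endothelial cell markers were instead highest in HET replicate 3, at 8104 and 6226. That library had the highest value of *Flnc*. In HET replicate 1, where *Flnc* had 53.6, they were 6256 and 5113, against 6514 to 7407 and 5008 to 5501 in WT. The part of these marker sums in the result was not tested. The genes most like *Flnc* over the 9 libraries were *Nfkb2* (0.89), *Enpp1* (0.86), *Fam71f2* (0.86), *Fam178b* (0.86) and *Hsd17b10* (0.85), and none of them is on the list of muscle genes.

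A wider list of 121 further genes of striated muscle was taken by function, in 7 roles, to see how these 6 genes sit among the rest. Of these genes, 99 were listed in the table and 72 were tested. By level the list was mixed: 44 genes had a mean of at least 100 normalized counts and 12 of at least 1000, while 17 stayed under 10 in every library. The genes with the highest level per kilobase are also known from other cells. They included *Pfkm*, the muscle form of phosphofructokinase (4009 per kilobase), *Fabp3*, a fatty acid carrier (2773), *Cryab*, a small heat shock protein (1629), *Tpm1*, tropomyosin (1107), *Fhl1*, a LIM protein (788), and *Actn2*, the alpha-actinin of the Z-disc (688). *Ryr1*, the calcium release channel of skeletal muscle, had 2107 to 3815 normalized counts. Others of the 3 highest per kilobase in their role were *Jph1* (139) and *Jsrp1* (75.5) of excitation-contraction coupling, *Pygm*, muscle glycogen phosphorylase (295), *Sgcb* (638), *Dmd* (65.7) and *Capn3* (33.3) of the dystrophin complex and membrane repair, and *Smyd1* (12.5), a muscle methyltransferase. At the low end, the myogenic factor gene *Myod1* had 3.39 to 10.9 normalized counts. The skeletal creatine kinase *Ckm* was not analysed here.

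None of the 72 tested genes had an adjusted p under 0.05 in any comparison (limma with Benjamini-Hochberg adjustment over 14239 genes, the smallest adjusted p being 0.999 in HET against WT and in KO against WT and 1.00 in KO against HET). In HET against WT, 2 of 72 (2.78%) had an unadjusted p under 0.05, against 1.11% of all genes, with 1 higher (all genes 0.604%) and 1 lower (all genes 0.506%). In KO against WT there were again 2 of 72, against 0.822% of all genes, with 0 higher (all genes 0.386%) and 2 lower (all genes 0.435%). In KO against HET there were 3 of 72 (4.17%), against 1.31% of all genes, with 1 higher (all genes 0.744%) and 2 lower (all genes 0.562%). Without overlap between the libraries, 1 gene was higher (all genes 2.25%) and 3 were lower (all genes 2.19%) in HET against WT, 0 were higher (all genes 2.02%) and 2 lower (all genes 2.51%) in KO against WT, and 3 were higher (all genes 2.25%) and 1 lower (all genes 2.19%) in KO against HET. When replicate number entered the fit as a block, the count over all genes in KO against HET was 318 in place of 186, and that of the list was 3 in both fits. Over the list, 38 fitted values were above 0 and 34 below in HET against WT, 33 and 39 in KO against WT, and 32 and 40 in KO against HET. The median log2FC was 0.0046, −0.0087 and −0.038 in these comparisons, against −0.0027, 0.0047 and −0.00099 over all genes tested. The most uneven splits by role were named after the values were seen. In KO against WT, 2 were above and 10 below 0 for the thin filament and 5 and 12 for excitation-contraction coupling. Energy metabolism had 7 and 1 there, and excitation-contraction coupling had 4 and 13 in KO against HET. In HET against WT the same 3 roles had 5 and 7, 9 and 8, and 6 and 2. These splits are descriptions with no test and do not show that the roles differ.

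**Figure D5:**
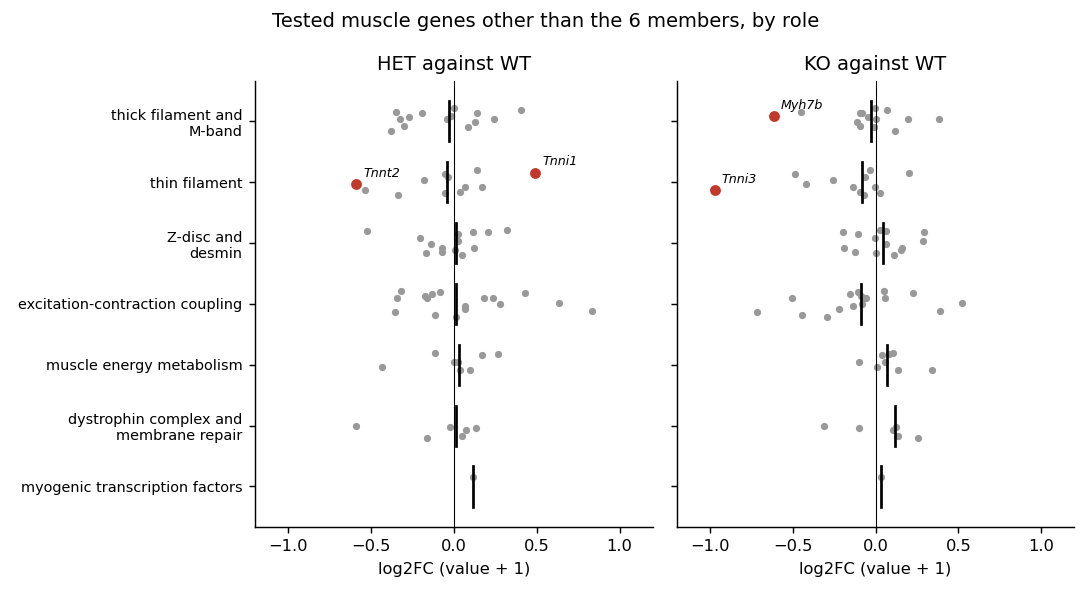
log2FC of the 72 tested muscle genes other than the 6 members, by role, in HET against WT (left) and KO against WT (right), with 1 point per gene, a bar at the median of each role and genes with an unadjusted p under 0.05 in red. The medians lie near 0 in each role, and *Tnnt2*, *Tnni1*, *Tnni3* and *Myh7b* are the genes in red.

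Among the 12 thin filament genes tested, 2 had an unadjusted p under 0.05 in HET against WT (all genes 1.11%) and 1 in KO against WT (all genes 0.822%). These were troponin genes, which make up much of this group, and they differed in direction. *Tnnt2*, cardiac troponin T, had 143, 151 and 260 normalized counts in WT and 127, 118 and 109 in HET, with each HET library below the WT libraries and a log2FC of −0.59 (standard error 0.25, adjusted p = 0.999 from limma). *Tnni3*, cardiac troponin I, had 30.7, 43.4 and 21.3 in WT and 10.99, 15.2 and 20.4 in KO, again with no overlap, and a log2FC of −0.97 (0.39, adjusted p = 0.999 from limma). *Tnni1*, slow troponin I, had a log2FC of 0.49 in HET against WT, where the libraries overlapped. The troponin genes *Tnnt1* and *Tnni2* had −0.18 and −0.053 in HET against WT and −0.26 and −0.49 in KO against WT, with overlapping libraries. The 3 thin filament genes with the highest level per kilobase, *Tpm1*, *Tmod1*, which caps the pointed end of actin filaments, and *Tnnc1*, the slow and cardiac troponin C, had log2FC values between −0.33 and 0.04 in HET and between −0.093 and −0.061 in KO. None of these differences passed the adjusted threshold.

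In the other roles, an unadjusted p under 0.05 was found in KO against WT for 1 of 14 thick filament and M-band genes (all genes 0.822%), and in KO against HET (all genes 1.31%) for 1 of those 14, 1 of 14 Z-disc and desmin genes and 1 of 17 genes of excitation-contraction coupling, with none past the adjusted threshold. Of the thick filament and M-band genes, *Myh7b*, a myosin heavy chain of heart and some neurons, had a log2FC of −0.61 in KO against WT (standard error 0.24, adjusted p = 0.999 from limma), with overlapping libraries, and of −0.60 in KO against HET. *Myl4*, *Obsl1* and *Myh7*, the 3 most abundant per kilobase, had values between −0.19 and 0.41 in HET and between −0.091 and 0.070 in KO. For Z-disc and desmin genes, *Fbxo32*, a ubiquitin ligase of muscle wasting, had 1303, 1221 and 1326 normalized counts in HET and 1117, 1135 and 870 in KO, with no overlap and a log2FC of −0.31 in KO against HET (0.12, adjusted p = 1.00 from limma). *Stac3*, of excitation-contraction coupling, had 128, 107 and 90.1 in HET and 131, 154 and 133 in KO, with a log2FC of 0.37 (0.17, adjusted p = 1.00 from limma). Energy metabolism and dystrophin complex genes had 0 genes at an unadjusted p under 0.05 in each comparison, and *Sgcb* and *Dmd*, a sarcoglycan and dystrophin itself, had log2FC values of 0.11 and 0.12 in KO against WT.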

How the data were processed

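The authors estimated transcript abundance with Salmon 0.9.1 on GRCm38 with correction for GC bias, imported it to R 3.6.0 with tximport and divided it by DESeq2 1.19.11 size factors. The deposited signal is these normalized counts per gene, and 0 columns were left unused. Low values were within 5% of a whole step for 18.4% to 53.0% of values under 8, so whole reads were not recovered and no count test was run.

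The members and lists were chosen with earlier results of these data known. Genes with at least 10 normalized counts in at least 3 libraries (14239) were fitted on log2(normalized count + 1) with limma 3.58.1 in R 4.3.3 (trend in the variance prior, all 9 libraries, no covariate) and Benjamini-Hochberg adjustment. The fit was run on simulated data with a known shift and independent noise in each gene. This checked the code only, since the simulation lacked the spread that the real libraries share. Symbols were found for 15457 of 15464 genes. Exon lengths, coordinates and transcripts came from GENCODE (GRCm38), and sequence shared between genes was counted in words of 31 bases of the longest coding transcript. Levels per kilobase divide by the union of annotated exons, which overstates the length in use.

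Named genes were the 6 members, relatives of each, muscle genes with an unadjusted p under 0.05 and no overlap, the 3 most abundant per kilobase in each role, the 5 most correlated with *Ttn* and *Flnc*, and genes at least 4-fold above all other libraries, while others were named after their values were seen. The replicate numbers are not explained in the labels. Deviations from the genotype mean correlated at 0.52, 0.28 and 0.51 between same-numbered HET and KO libraries. With same-numbered WT libraries they correlated at −0.22 to 0.32. HET replicate 3 and KO replicate 3 both stood apart on the first principal component. Deviations of 3 libraries from their own mean are not independent, so these values do not settle whether the numbers pair mice. Figures were drawn with matplotlib 3.10.9. Fold changes on this scale understate the change of low genes. Some relatives of the members and some sequences are not reported here.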

Additional observations from a re-analysis of the deposited data

How the results depend on the processing

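By limma, 0 genes passed an adjusted p of 0.05 in HET against WT, KO against WT and KO against HET, over all genes and over the wider muscle list, and the count was also 0 under each of the 20 alternatives (other pseudocounts, filters, scalings, variance priors, fits of 2 genotypes, the replicate block, leaving out each library, and leaving out HET replicate 3 and KO replicate 3 together, which was chosen after seeing the data). At an unadjusted p under 0.05 the counts over all genes ran from 113 to 394 in HET against WT (158 in the fit reported), from 72 to 310 in KO against WT (117) and from 139 to 318 in KO against HET (186). With the replicate number as a block they were 365, 310 and 318. For the wider list the counts ran from 1 to 4, from 0 to 3 and from 2 to 5, and under the block they were 1, 2 and 3. The block changed no adjusted call. With at most 3 mice per genotype, a count of 0 under every alternative does not show that no gene changed.

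Among the fold changes of the 6 genes, 9 alternative values changed sign, all from leaving out libraries. They were in *Ttn* in HET against WT without WT replicate 2, *Neb* in KO against WT without WT replicate 2 or KO replicate 2, *Acta1* in KO against HET without HET replicate 3 or KO replicate 2, and *Myh1* in HET against WT without HET replicate 3 (alone or with KO replicate 3) and in KO against HET without HET replicate 1 or KO replicate 1. As log2 ratios of group means, the values of *Ttn* were −2.35 in KO against WT and −1.44 in HET against WT. With at least 50 normalized counts required, only *Neb* and *Acta1* of the 6 genes were fitted. The depth in reads is unknown, so the spread between mice is the only measure of error. The standard errors pool this spread over the genotypes and draw it toward a trend over all genes tested. For *Ttn* the standard error was therefore 0.81 in each comparison, although its spread differed between genotypes.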
